A study of Mus musculus with 24 samples.

Results

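The intermediate and round-like forms of mouse hepatocyte organoids (Hep-Orgs) were compared gene by gene. A gene was kept when its level was at least 1 FPKM (fragments per kilobase of transcript, scaled to the library total) in either library, which held for 12033 of the 20729 genes listed. The difference between the forms is given as the log2 ratio of FPKM + 1, intermediate over round-like, so that a positive value means a higher level in the intermediate form. Each form was 1 library of picked organoids, so no ratio has a replicate check or a test. A further library of the grape-like form gives context, and its values are set beside the others in the order grape-like, intermediate, round-like.

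Hepatocytes were isolated from the livers of adult wild-type BALB/c mice, with cells carrying the epithelial marker EpCAM removed, and embedded in Matrigel, a basement membrane gel. All 3 forms were picked at passage 0 (P0) from Hep-Med, a medium rich in growth factors, Wnt pathway agonists and a TGF-beta receptor inhibitor, with neither DAPT (a Notch pathway inhibitor) nor dexamethasone. In culture the grape-like form gave way to the intermediate and then to the round-like form. The series holds 24 libraries in all, and 9 libraries of cholangiocyte organoids (Cho-Orgs), grown from the EpCAM-positive bile duct cells of such livers, serve as a second readout for the genes that differed. The number of organoids and of mice behind each picked library is not given in the sources used here, and neither is the meaning of the number 2 that ends the label of the intermediate library.

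Hepatocytes secrete most plasma proteins, metabolise drugs through cytochrome P450 enzymes and handle urea, lipids and glucose. Cholangiocytes, the cells that line the bile ducts, share an embryonic progenitor with hepatocytes and carry keratins 7 and 19. Hepatocytes in culture often lose their own products and take up biliary genes. Both lineages arise from the endoderm, the germ layer that also gives rise to the lining of the intestine and stomach and to the pancreas.

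The intermediate library was richer in hepatocyte products and in a set of intestinal epithelial genes that was drawn up after values were seen. The round-like library was richer in cell cycle genes and in some biliary genes, though most biliary genes lay within 2-fold. That library was also richer in multicopy genes of the early embryo that were nearly silent in the intermediate form. The list of these was drawn up after values were seen. Those that reached the level threshold did so through the round-like library alone. Of the 12033 genes, 485 (4.03%) were at least 2-fold higher in the intermediate library and 320 (2.66%) at least 2-fold lower, while 93.3% lay within 2-fold. At 4-fold the counts were 165 and 48, and at 16-fold 18 and 9. The median ratio over all genes was -0.13, with quartiles of -0.36 and 0.15, and 7618 genes had a negative and 4415 a positive ratio. When the libraries were rescaled by the median ratio over genes, the median of all genes moved up by 0.17 to 0.03, and the share of the called genes that were higher went from 60.2% to 74.9%. Expressed as TPM, that share was 51.4%. Ratios near the median are therefore read against it.

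**Figure D1:**
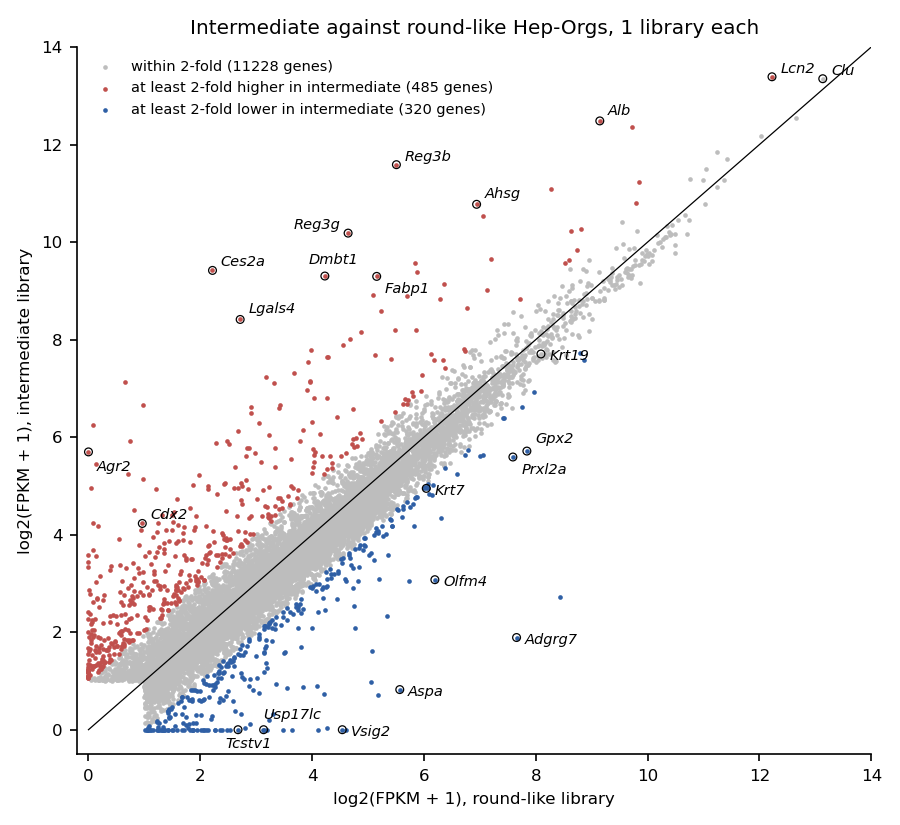
Level of each of the 12033 genes as log2(FPKM + 1) in the round-like library (horizontal) and the intermediate library (vertical), 1 point a gene, with the line of equal levels. Red points are the 485 genes at least 2-fold higher and blue points the 320 at least 2-fold lower in the intermediate library; of the labelled genes, Ces2a lies farthest above the line and Adgrg7 farthest below it.

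The depth was estimated at 40080000, 40360000 and 40260000 fragments from the steps between low FPKM values. The 10 most abundant genes took 10.2%, 13.1% and 9.48% of the summed FPKM. Genes above 0 FPKM numbered 16457, 16939 and 18160. An FPKM of at least 1 was reached in both compared libraries by 11084 genes, in the intermediate library alone by 486 and in the round-like library alone by 463. Allowing for counting error, the 95% interval of the ratio lay wholly past 2-fold for 392 of the 485 and 227 of the 320 genes. These intervals cover the counting error of the estimated fragments only, from 1 library a side. Whether copies made in amplification were removed is not given in the sources used here, so the intervals may be too narrow. Just outside the level threshold lay Map1b with 0.576 and 0.999 FPKM in the intermediate and round-like libraries, and just inside it Hykk with 0.602 and 1.00 FPKM.

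The most abundant transcripts were largely shared. Clu, which encodes the secreted chaperone clusterin, was at 2650, 10436 and 8974 FPKM with a ratio of 0.22. Mmp7, a secreted protease of injured epithelia, was at 835, 3692 and 2427 FPKM with a ratio of 0.61. Spp1, which encodes osteopontin and marks bile duct cells, was at 796, 2899 and 2107 FPKM with a ratio of 0.46. These 3 genes were high in both compared forms and lower in the grape-like form. Lcn2, an acute phase protein that binds bacterial iron carriers, was the most abundant gene of the intermediate library at 10729 FPKM, against 4783 FPKM in the round-like and 3154 FPKM in the grape-like library. Alb ranked 4 by level in the intermediate library and 93 in the round-like library. At the other end, Hspa5, the chaperone of the endoplasmic reticulum, had 587 and 588 FPKM in the compared libraries, and S100a11, a calcium-binding protein, had 661 in each.

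Plasma protein genes were higher in the intermediate library almost without exception. Of 30 listed genes, 28 were at least 2-fold higher and 0 lower, with a median ratio of 2.81 against -0.13 over all genes. Their summed level was 11717, 23453 and 4145 FPKM. Alb, which encodes albumin and lies on chromosome 5 of GRCm38.p6 from 90460870 to 90476602, was 10.1-fold higher in the intermediate library, with a log2 ratio of 3.34 and a 95% counting interval of 3.33 to 3.35.

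Fgg, the gamma chain of the clotting protein fibrinogen, was at 221, 483 and 32.9 FPKM with a ratio of 3.83. The alpha chain gene Fga was at 286, 759 and 56.1 FPKM with a ratio of 3.73, and the beta chain gene Fgb at 619.6, 1474 and 132 FPKM with a ratio of 3.47. The 3 chains, which assemble into 1 protein, thus stood at similar ratios. Ahsg, which encodes the mineral-binding protein fetuin-A, was at 712, 1750.0 and 122 FPKM with a ratio of 3.83. Trf, the iron carrier transferrin, was at 2109, 5272 and 843 FPKM with a ratio of 2.64. All 5 genes were highest in the intermediate and lowest in the round-like library. The 2 genes short of 2-fold were named after their values were seen. Ttr, which encodes the thyroid hormone carrier transthyretin, was at 263, 788 and 492 FPKM with a ratio of 0.68, and Apoc3 was under 2 FPKM in each library.

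The acute phase genes, which the liver raises in inflammation, overlapped with the plasma proteins and had the same direction. Of 18 genes, 12 were at least 2-fold higher, 0 were lower and all 18 ratios were positive, with a median of 1.11. Hp, which encodes the haemoglobin-binding protein haptoglobin, was at 782, 2191 and 307 FPKM with a ratio of 2.83. Itih4, an inter-alpha-inhibitor heavy chain, was at 128, 198 and 18.4 FPKM with a ratio of 3.36. Saa3, a serum amyloid of inflamed tissue, was at 2716, 1357 and 747 FPKM with a ratio of 0.86, so it was highest in the grape-like library.

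Of 17 hepatocyte transcription factor genes, 6 were at least 2-fold higher and 0 lower, with a median ratio of 0.89. Creb3l3, which encodes a liver factor of fasting metabolism, was at 8.91, 16.03 and 0.923 FPKM with a ratio of 3.15. Nr1i2, the xenobiotic receptor PXR, was at 1.92, 6.04 and 0.487 FPKM with a ratio of 2.24. Foxa3, a pioneer factor of liver genes, was at 9.24, 26.1 and 9.73 FPKM with a ratio of 1.34. Hnf4a, the nuclear receptor that maintains hepatocyte identity, had a ratio of 1.09, which was smaller than those of most plasma protein genes. The list was not uniform, since 3 genes had negative ratios. Onecut1 and Onecut2, factors of the early hepatobiliary lineage, had ratios of -0.78 and -0.53, and Foxa2 had -0.72. Foxa2 and Onecut2 were named after their values were seen.

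Cytochrome P450 genes showed the same tilt, with 13 of 19 at least 2-fold higher, 1 lower and a median ratio of 2.16. Cyp2c29, a drug-metabolising enzyme, was at 199.5, 136 and 8.97 FPKM with a ratio of 3.78. Cyp3a11, the main inducible P450 of mouse liver, was at 251, 123 and 14.1 FPKM with a ratio of 3.04. Both were highest in the grape-like library and lowest in the round-like one. Cyp1a1, a target of the aryl hydrocarbon receptor, instead peaked in the intermediate library at 78.7 FPKM, against 22.1 in the grape-like and 15.1 in the round-like library. The single lower gene was Cyp2f2, listed at 0 in the grape-like and intermediate libraries and at 1.35 FPKM in the round-like library.

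Metabolic genes differed by branch. All 17 genes of fatty acid oxidation and ketogenesis had positive ratios, with 6 at least 2-fold higher, 0 lower and a median of 0.79. Fabp1, the liver fatty acid-binding protein, was at 589.8, 628 and 34.6 FPKM with a ratio of 4.14. The median of the 20 genes of glycolysis and gluconeogenesis was -0.12, which changed sign to 0.07 after median-ratio scaling, yet 3 genes were at least 2-fold higher and 0 lower. Among them were G6pc, the glucose-6-phosphatase of liver, with a ratio of 2.16, and Fbp1, a gluconeogenic phosphatase, with 1.60. Of 14 genes of the urea cycle and amino acid catabolism, 4 were at least 2-fold higher and 0 lower, with a median of 0.24. Nags, which makes the activator of the urea cycle, was at 3.26, 8.51 and 1.24 FPKM with a ratio of 2.08. Cps1 and Arg1, the first and last urea cycle enzymes, were below 1 FPKM in both compared libraries, as was the hepatocyte receptor gene Asgr1. These 3 absences were noted after their values were seen. The 21 cholesterol synthesis genes had 0 members past 2-fold either way and a median of -0.18.

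Among 12 bile acid and organic anion transporters, 3 were at least 2-fold higher and 1 lower, with a median ratio of 0.68. Abcg5 and Abcg8 together encode the sterol exporter of the bile canaliculus. Abcg5 was at 4.64, 17.1 and 0.124 FPKM with a ratio of 4.01, and Abcg8 at 3.73, 11.9 and 0.0596 FPKM with a ratio of 3.60. The pair was thus above 10 FPKM in the intermediate library and close to 0 in the round-like library. Abcc2, the canalicular exporter of conjugated bilirubin, was at 19.9, 36.1 and 2.94 FPKM with a ratio of 3.24. Abcb1b, a multidrug exporter, went the other way with 3.45, 2.03 and 7.76 FPKM and a ratio of -1.53.

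Fetal liver genes were mixed. Of 8 genes, 3 were at least 2-fold higher and 1 lower, with a median of 0.46. Igf2, a fetal growth factor, was at 16.5, 29.5 and 1.30 FPKM with a ratio of 3.73, and Afp, the fetal counterpart of albumin, had a ratio of 2.56. H19, the noncoding RNA next to Igf2, was at 195.5, 12.9 and 3.43 FPKM with a ratio of 1.65. H19 and Igf2 therefore differed in order, with H19 highest in the grape-like and Igf2 in the intermediate library.

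**Figure D2:**
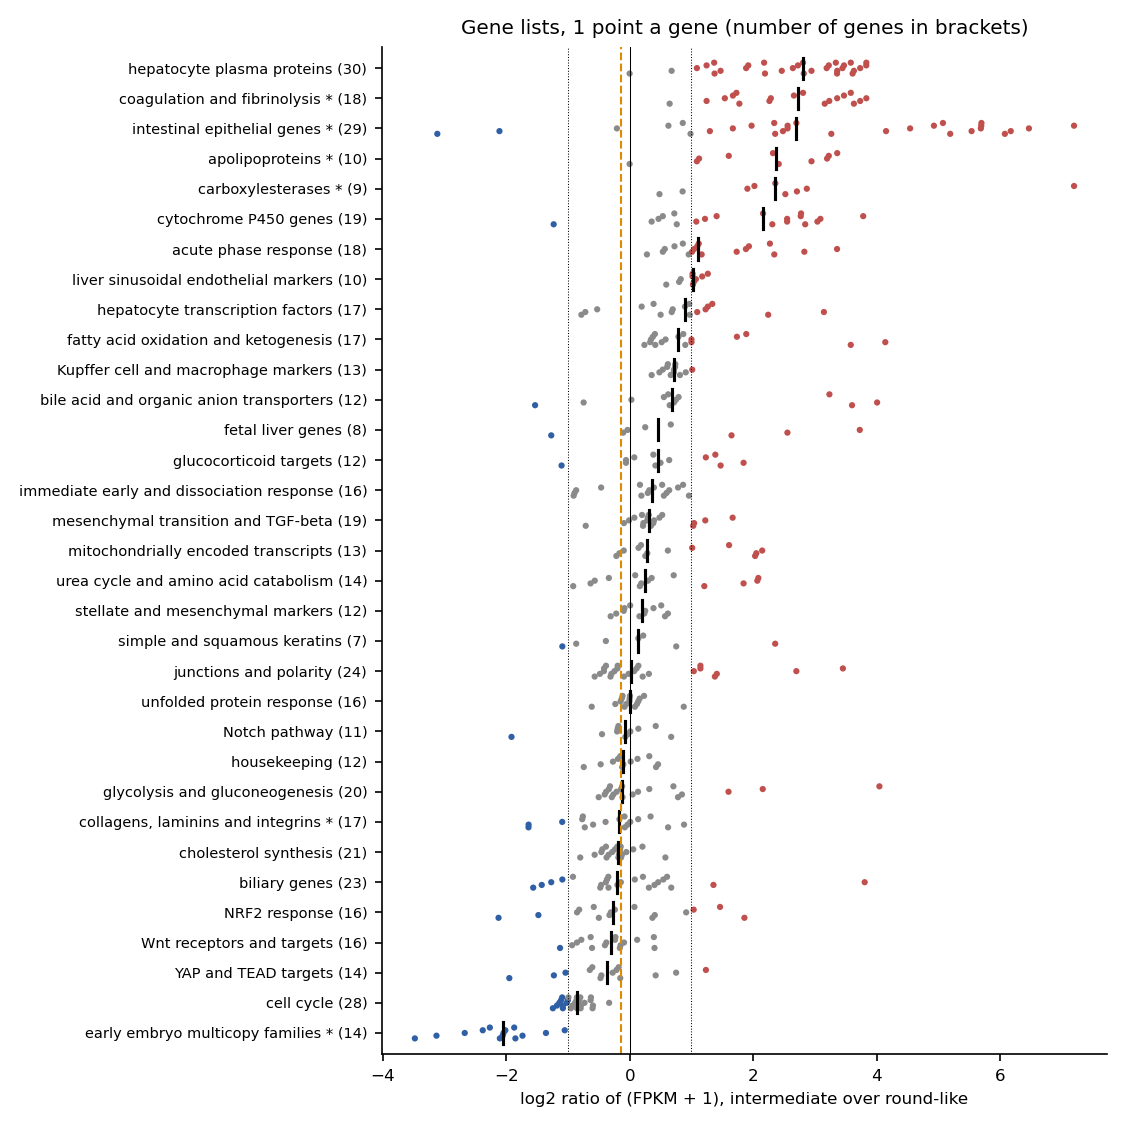
Log2 ratio of (FPKM + 1), intermediate over round-like, for the genes of each list drawn (1 point a gene, red at least 2-fold higher, blue at least 2-fold lower). Not drawn are the sex-linked genes and the marker lists of hepatocytes, cholangiocytes, blood cells, and pancreas and intestine. Black bars are list medians, the orange dashed line is the median of all genes at -0.13, dotted lines mark 2-fold, and a star marks a list chosen after values were seen. Plasma proteins lie near the top at a median of 2.81, cell cycle genes have a median of -0.86, and the early embryo families lie lowest.

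The 15 genes with the largest positive ratios among those at 20 FPKM or more in the intermediate library included genes known from intestinal cells and genes shared by liver and intestine. Ces2a, a carboxylesterase of liver and intestine on chromosome 8 from 104734003 to 104741634, was at 82.7, 683 and 3.65 FPKM, which is a 187-fold difference and a log2 ratio of 7.20. Lypd8, a surface protein of colonic epithelium that binds bacteria, was at 2.63, 139 and 0.576 FPKM with a ratio of 6.47. Reg3b and Reg3g encode secreted antibacterial lectins and lie on chromosome 6. Reg3b was at 3.23, 3075 and 44.5 FPKM with a ratio of 6.08, and Reg3g was listed at 0 in the grape-like library and at 1162 and 23.99 FPKM in the others, with a ratio of 5.54. The level of Reg3b in the intermediate library was thus of the order of the levels of Spp1 and Mmp7, while the round-like library held 69.1-fold less. Reg1, a neighbour in the same family that was named after its value was seen, went the other way with 0, 0.257 and 5.60 FPKM and a ratio of -2.39.

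Several of these genes were at or below the floor of 3 estimated fragments in the round-like library, so that their fold is a lower bound. Agr2, a protein disulphide isomerase of mucus-secreting cells on chromosome 12, was at 50.9 FPKM in the intermediate library and listed at 0 in the other two, which is at least 616-fold higher than in the round-like library. Tff3, the trefoil peptide of goblet cells, was at 1.963, 75.2 and 0.0542 FPKM, at least 495-fold higher. Fabp2, the intestinal fatty acid-binding protein, was at 9.06, 30.3 and 0.0257 FPKM, at least 390-fold higher. Lgals4, a galectin of the gut lining, was at 4.09, 339.8 and 5.56 FPKM with a ratio of 5.70. Dmbt1, a mucosal scavenger protein, was listed at 0 in the grape-like library and at 631 and 17.7 FPKM in the others, with a ratio of 5.08. Muc13, a transmembrane mucin, was at 2.49, 101 and 0.969 FPKM with a ratio of 5.69. The remaining genes of the 15 were Clec2h, Rbp2, Cyp2c55, Cdhr5 and Fabp1, with ratios from 4.14 to 5.33.

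A wider list of 44 intestinal epithelial genes was then drawn up after these values were seen. Of its 29 members, 23 were at least 2-fold higher in the intermediate library and 2 lower, with a median of 2.70. With the 6 members at the floor in the round-like library set to their bounds and no pseudocount, the median was 5.60. These 6 passed the level threshold through the intermediate library alone, so that their positive ratios follow from the threshold. The same holds for members below 1 FPKM in the round-like library, such as Lypd8 and Cdx2. Both medians are therefore raised by the threshold and by the choice of the list. The summed level was 213, 6674 and 264.5 FPKM. Cdx2, the homeobox factor that specifies intestine, was at 0.0932, 17.8 and 0.949 FPKM with a ratio of 3.27, and Isx, an intestinal homeobox factor, was at 2.18 FPKM in the intermediate library and listed at 0 in the other two. Cdh17, a cadherin of intestine and fetal liver, was at 4.75, 50.2 and 6.87 FPKM with a ratio of 2.70, and Krt20, a keratin of differentiated gut cells, had a ratio of 2.36. The list was not moved as a whole. The goblet cell genes Zg16 and Atoh1 were listed at 0 in all 3 libraries, Muc2 was below 0.2 FPKM in each, and the disaccharidase genes Sis and Lct were at or near 0 in both compared libraries. Olfm4, a glycoprotein of intestinal crypts, was lower in the intermediate library with 0, 7.43 and 72.2 FPKM and a ratio of -3.12, as was Fcgbp with -2.11. The list of pancreatic and intestinal markers that was chosen with the other lists held 8 members, with 5 higher, 0 lower and a median of 2.73. That median fell short of 2-fold when every gene above 0 FPKM in either library was kept. Its members include Tff3, Fabp2, Lgals4 and Cdx2, given above, so it is not a separate result. Pdx1, the pancreatic factor, had 2.23 and 3.60 FPKM in the compared libraries.

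To show the start regions of these genes, promoter windows from 250 bases before to 50 bases after each start were read from RefSeq on GRCm38.p6. Windows were found for 372 of the 485 genes that were at least 2-fold higher, 234 of the 320 that were lower and 9072 of the genes within 2-fold. The following 120 bases upstream of the start are printed for 7 genes that hold a half-site of the liver and gut factor HNF1 and 3 that hold a site of HNF4. They were picked after their ratios and matches were seen. Capitals mark the motif, read on either strand, and the letters run 5′ to 3′ along the gene's strand.
Alb (HNF1 half-site, chr5:90460750-90460869, plus strand): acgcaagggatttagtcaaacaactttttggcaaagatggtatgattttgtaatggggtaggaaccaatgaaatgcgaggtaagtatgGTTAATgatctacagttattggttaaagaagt
Afp (HNF1 half-site, chr5:90490594-90490713, plus strand): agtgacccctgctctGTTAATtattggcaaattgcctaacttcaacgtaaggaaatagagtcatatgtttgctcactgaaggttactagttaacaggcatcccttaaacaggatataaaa
Fga (HNF1 half-site, chr3:83026033-83026152, plus strand): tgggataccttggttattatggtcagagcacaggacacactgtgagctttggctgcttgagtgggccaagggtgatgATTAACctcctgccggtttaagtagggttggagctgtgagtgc
Fgb (HNF1 half-site, chr3:83049864-83049983, minus strand): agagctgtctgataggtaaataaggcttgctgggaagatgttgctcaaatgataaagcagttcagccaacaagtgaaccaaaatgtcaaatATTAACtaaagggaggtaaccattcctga
Fabp1 (HNF1 half-site, chr6:71199759-71199878, plus strand): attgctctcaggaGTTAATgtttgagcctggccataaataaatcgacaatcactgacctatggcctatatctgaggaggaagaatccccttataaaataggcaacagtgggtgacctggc
Muc13 (HNF1 half-site, chr16:33794369-33794488, plus strand): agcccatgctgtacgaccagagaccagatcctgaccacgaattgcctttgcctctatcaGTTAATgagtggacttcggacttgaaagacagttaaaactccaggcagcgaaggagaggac
Cdx2 (HNF1 half-site, chr5:147307250-147307369, minus strand): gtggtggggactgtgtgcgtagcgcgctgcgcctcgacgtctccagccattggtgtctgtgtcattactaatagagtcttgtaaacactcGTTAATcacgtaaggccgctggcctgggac
Cyp3a11 (HNF4 site, chr5:145879855-145879974, minus strand): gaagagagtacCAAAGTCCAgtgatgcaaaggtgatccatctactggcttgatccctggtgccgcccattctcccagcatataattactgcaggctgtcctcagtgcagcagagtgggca
Cyp2c65 (HNF4 site, chr19:39060886-39061005, plus strand): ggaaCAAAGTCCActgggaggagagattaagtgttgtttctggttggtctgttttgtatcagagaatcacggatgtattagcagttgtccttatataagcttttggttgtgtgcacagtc
Cyp2c70 (HNF4 site, chr19:40187287-40187406, minus strand): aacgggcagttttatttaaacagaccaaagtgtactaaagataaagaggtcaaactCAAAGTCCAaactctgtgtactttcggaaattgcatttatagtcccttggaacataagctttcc

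In these windows the half-site began 32 bases before the start in Alb, 43 in Fga, 29 in Fgb, 30 in Cdx2, 61 in Muc13, 105 in Afp and 107 in Fabp1. Cyp2c65, a P450 of the digestive tract, was at 4.04, 17.9 and 0.0639 FPKM with a ratio of 4.15.

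The half-site GTTAAT, searched on both strands, was in the windows of 59 of the 372 genes that were at least 2-fold higher (15.9%) and 13 of the 234 that were lower (5.56%). It was in 5.03% of the genes within 2-fold and 8.24% of all 27025 genes with a window. Among plasma protein genes it was in 9 of 24 (37.5%), among the intestinal genes in 5 of 24 (20.8%), among the acute phase genes in 1 of 14 (7.14%) and among the cell cycle genes in 1 of 23 (4.35%). The full palindromic HNF1 motif, 2 half-sites facing each other across 1 base, was in no window of the members and in 3 genes overall (0.0111%). The HNF4 motif CAAAGTCCA was in 12 of the higher genes (3.23%), 1 of the lower genes (0.427%), 0.485% of the genes within 2-fold and 0.555% of all genes. It was in 0 of the 24 plasma protein genes and 1 of the 24 intestinal genes (4.17%). The base composition of the windows differed as well, with a median GC content of 52.3% for higher genes, 56.2% for lower genes, 61.0% for genes within 2-fold and 52.7% for all genes. The part of GC content in the shares was not tested. A match describes letters in a window and not binding.

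The other motifs differed less between the directions. The AP-1 motif TGANTCA was in 11.6% of higher, 9.83% of lower and 6.02% of within-2-fold genes, against 8.97% of all genes. By list, it was in 6 of 24 plasma protein genes (25%) and 4 of 14 acute phase genes (28.6%). It was in 1 of 24 intestinal genes (4.17%) and 0 of 23 cell cycle genes. The TEAD motif GGAATG was in 18.0%, 17.9% and 14.1%, against 16.6% of all. The RBPJ motif GTGGGAA, read by the Notch pathway, was in 6.99%, 8.12% and 7.10%, against 7.25% of all. The C/EBP motif TTGCGCAA was in under 1% of each set.

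**Figure D3:**
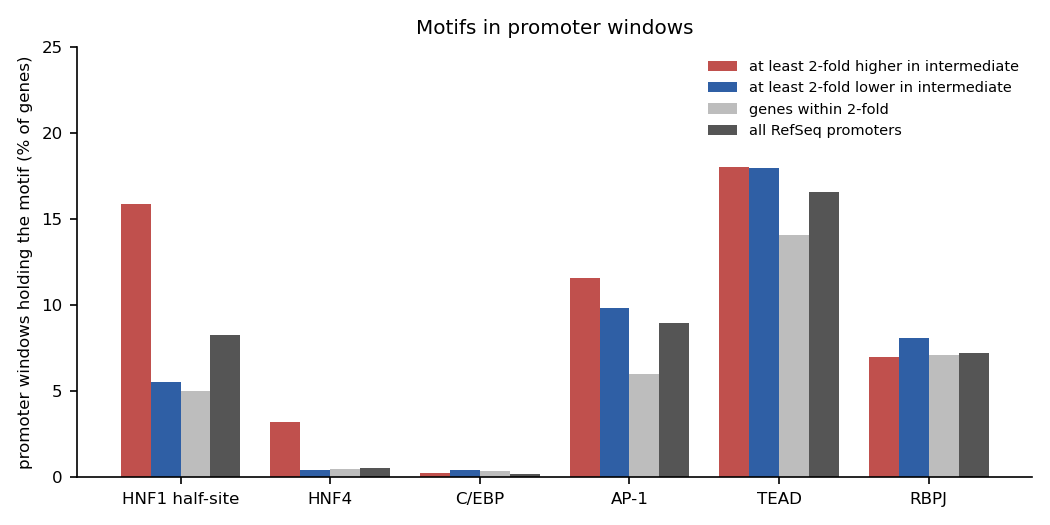
Share of genes (%) whose promoter window holds each motif, for genes at least 2-fold higher (red) and lower (blue) in the intermediate library, genes within 2-fold (light grey) and all genes with a window (dark grey). The HNF1 half-site is in 15.9% of higher genes against 5.56% of lower genes, and the HNF4 motif in 3.23% against 0.427%.

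Among the genes that were lower in the intermediate library, Adgrg7, an adhesion G protein-coupled receptor on chromosome 16 from 56724609 to 56796006, had the largest negative ratio of the named genes. It was listed at 0 in the grape-like library and was at 2.71 and 201 FPKM in the others, 74.1-fold higher in the round-like library, with a ratio of -5.77. Aspa, which splits N-acetylaspartate, was at 1.54, 0.769 and 46.4 FPKM with a ratio of -4.74. Flrt3, a membrane protein of cell adhesion, was at 0.507, 0.639 and 35.2 FPKM with a ratio of -4.46. These genes were low in the grape-like and intermediate libraries alike. Vsig2, a membrane protein with immunoglobulin domains, was listed at 0 in the intermediate library and at 22.3 FPKM in the round-like library, at least 347-fold higher. Myl9, a regulatory light chain of myosin, was at 7.25, 0.967 and 32.3 FPKM with a ratio of -4.08. Car9, a carbonic anhydrase induced by low oxygen, had a ratio of -3.02, and Prxl2a, a peroxiredoxin-like protein, was at 27.6, 47.2 and 192 FPKM, 4.06-fold higher in the round-like library. The other genes of the 15 with the largest negative ratios at 20 FPKM or more were Serpinb9, Olfm4, Serpinb6b, Clic6, St3gal6, Gpx2, Zfpm1 and Ccn2, with ratios from -3.45 to -1.95.

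**Figure D4:**
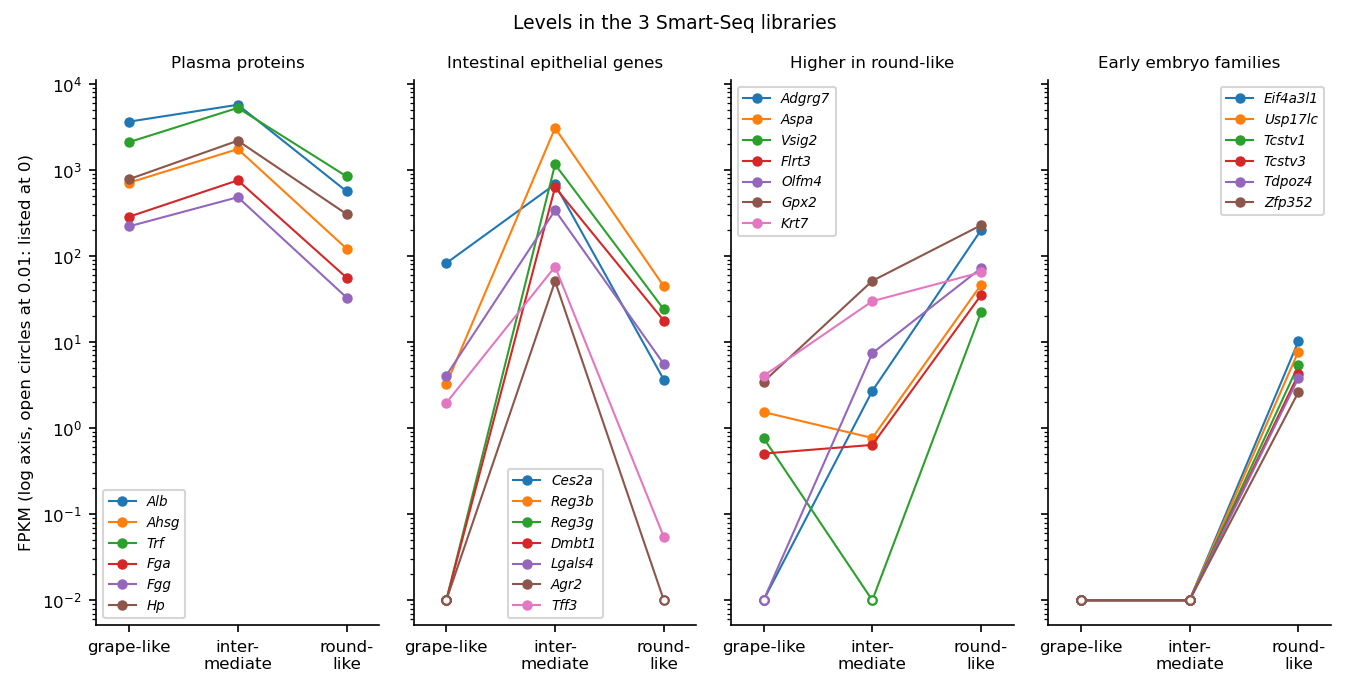
FPKM (log axis) of selected genes by organoid form, 1 library a form, with open circles at 0.01 for genes listed at 0. Plasma proteins and intestinal genes peak in the intermediate library, while Adgrg7, Aspa and Vsig2 exceed 20 FPKM only in the round-like library and the early embryo genes drawn exceed 0 only there.

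Biliary genes were split rather than shifted. Of 23 members, 2 were at least 2-fold higher, 4 lower, and the median was -0.20, which moved to -0.01 after median-ratio scaling. Among the lower genes were Muc1 (-1.43), Cd24a (-1.27) and Krt7 (-1.09). Muc1, a transmembrane mucin, was at 3.91, 48.5 and 132 FPKM, and Cd24a, a surface protein of progenitor cells, at 60.2, 192 and 464 FPKM. Krt7 was no longer 2-fold lower after median-ratio scaling. Krt19, Sox9 and Epcam had ratios of -0.39, -0.46 and -0.48, within 2-fold. Anxa13, an annexin of polarised epithelia, was higher at 15.6, 219 and 14.7 FPKM with a ratio of 3.81, and Cftr, the chloride channel of bile ducts, was at 0.471, 4.45 and 1.13 FPKM with a ratio of 1.36. Most of these genes were lowest in the grape-like library. Epcam and Sox9 were named here after their values were seen.

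Of 24 genes of junctions and polarity, 7 were at least 2-fold higher and 0 lower, with a median of 0.03. Ceacam1, an adhesion molecule of the bile canaliculus and gut, was at 3.18, 59.8 and 4.54 FPKM with a ratio of 3.45. Gjb1, the main connexin of hepatocytes, was at 34.5, 121 and 54.1 FPKM with a ratio of 1.15, and was named after its value was seen. Dsc2, a desmosomal cadherin, had a ratio of 1.41 and Gjb2, a further liver connexin, 1.38. The general epithelial cadherin Cdh1 was close to even at 36.6, 174 and 186 FPKM, with a ratio of -0.09.

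All 28 cell cycle genes were lower in the intermediate library, under each of the 4 scalings compared. Of these, 9 were at least 2-fold lower and 0 higher, with a median of -0.86 against -0.13 over all genes. Most of them lay close to the 2-fold line, and after median-ratio scaling 1 was past it, with a median of -0.68, while 13 were past it as TPM. Kif23, a kinesin of cytokinesis, was at 17.2, 17.1 and 41.9 FPKM with a ratio of -1.25. Top2a, a topoisomerase of dividing cells, was at 54.2, 48.6 and 105 FPKM with a ratio of -1.10. Mcm6, a subunit of the replicative helicase, was at 28.4, 22.6 and 52.5 FPKM with a ratio of -1.18. Grape-like and intermediate levels of these genes were close to each other and the round-like level stood above both. Pcna, the sliding clamp of DNA replication, was at 196, 135 and 210.2 FPKM with a ratio of -0.63.

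Signalling lists are read beside the shares of all 12033 genes, 4.03% at least 2-fold higher and 2.66% at least 2-fold lower. Of 16 Wnt receptors and targets, 1 was lower and 0 higher, with a median of -0.31. Sp5, a direct Wnt target, had a ratio of -1.13, which fell short of 2-fold after median-ratio scaling. Axin2, a feedback inhibitor induced by Wnt, was at 5.14, 14.8 and 26.2 FPKM with a ratio of -0.78. Of 11 Notch pathway genes, 1 was lower and 0 higher, and the median of -0.07 changed sign to 0.08 after median-ratio scaling. The lower gene was Dll1, a Notch ligand, with 1.12, 3.25 and 15.1 FPKM and a ratio of -1.92. The receptor genes Notch1 and Notch2 were at 8.61 and 9.39 FPKM in the intermediate and 8.54 and 9.60 FPKM in the round-like form. Hes1, a Notch target, was at 30.5 and 27.6 FPKM. Of 14 YAP and TEAD targets, which respond to cell tension, 1 was higher and 3 lower, with a median of -0.37. Ccn2, a matricellular protein, was at 4.22, 19.4 and 77.7 FPKM with a ratio of -1.95, whereas Ankrd1, a nuclear cofactor that is a classical target of YAP, was at 9.14, 24.8 and 9.96 FPKM with a ratio of 1.23.

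Of 16 genes of the NRF2 response to oxidants, 3 were higher and 2 lower, with a median of -0.27. Gpx2, a glutathione peroxidase of the digestive tract, was at 3.46, 51.5 and 228 FPKM with a ratio of -2.13, and Slc7a11, the cystine importer, had -1.48. Gstm3, a glutathione transferase, had a ratio of 1.86. Of 12 glucocorticoid targets, 4 were higher and 1 lower, with a median of 0.46. Tat, the tyrosine aminotransferase that glucocorticoids induce in liver, was at 11.9, 7.28 and 1.30 FPKM with a ratio of 1.84, while Sgk1, a kinase of salt transport, had -1.10 and was short of 2-fold after median-ratio scaling. Of 19 genes of mesenchymal transition and TGF-beta signalling, 4 were higher and 0 lower, with a median of 0.31. Fn1, which encodes fibronectin, was at 363, 171 and 82.5 FPKM with a ratio of 1.04, and Tgfbi, a matrix protein induced by TGF-beta, had 1.67. Fn1 fell short of 2-fold as TPM, which left 3 of the 4. The 16 immediate early genes and the 16 genes of the unfolded protein response had no member past 2-fold, against 2 and 1 higher after median-ratio scaling, with medians of 0.35 and 0.00, and the 12 housekeeping genes had a median of -0.11 that changed sign to 0.07 after median-ratio scaling.

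Markers of other liver cells were read in the same way. Of 14 Kupffer cell and macrophage markers, 13 passed the level threshold, 1 was at least 2-fold higher in the intermediate library and all 13 ratios were positive, with a median of 0.71. Their summed level was 11373, 3261 and 1809 FPKM, and Clec4f, a lectin that defines Kupffer cells, was at 79.3, 13.4 and 10.3 FPKM. Of 12 sinusoidal endothelial markers, 10 passed and 7 were higher, with a median of 1.02 and a sum of 311, 155 and 72.3 FPKM. Of 14 stellate and mesenchymal markers, 12 passed and 0 were past 2-fold, with a median of 0.20 and a sum of 1896, 486 and 411 FPKM. Of 12 blood cell markers, 3 passed, 2 were higher, the sum was 33.0, 15.3 and 5.81 FPKM, and the haemoglobin genes Hbb-bs and Hba-a1 were listed at 0 in both compared libraries. The markers of macrophages and of endothelium thus moved in the same direction as the hepatocyte genes. Their medians of 0.71 and 1.02 were below the 2.81 of the plasma proteins. The endothelial median was above the 0.89 of the hepatocyte transcription factors. The part of these markers in the results was not tested. In such bulk material a smaller number of cells of a type and less RNA per cell cannot be told apart.

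The labels of the organoid forms rest on shape. Of 10 hepatocyte markers, 8 passed the level threshold, 6 were at least 2-fold higher in the intermediate library and 0 lower, with a median of 1.63. Of 10 cholangiocyte markers, 9 passed, 1 was higher and 1 lower, with a median of -0.35. Alb at 565 FPKM and Krt19 at 272 FPKM in the round-like library, and Alb at 5729 FPKM with Krt19 at 208 FPKM in the intermediate library, show that both libraries held transcripts of both lineages.

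Some multicopy genes known from the cleavage-stage mouse embryo were above the floor of 3 fragments in the round-like library and not in the others. The list was drawn up after the values were seen. Of 30 such genes, 14 passed the level threshold. They passed through the round-like library alone and were at or below that floor in the intermediate library, so that their lower ratios follow from the threshold. Over the 29 genes above 0 FPKM in either library the median ratio was -0.91. The summed level of the list was 0, 0.0275 and 59.1 FPKM. Eif4a3l1, a copy of an RNA helicase gene, was at 10.2 FPKM, Usp17lc, a deubiquitinase gene, at 7.77 FPKM and Tcstv1, a gene of 2-cell embryos, at 5.38 FPKM in the round-like library, and all were listed at 0 in the other two. Against the floor, the round-like level of the 14 genes was between at least 28.6-fold and at least 249-fold higher, with a median log2 bound of -6.07 for the intermediate over the round-like level. Zscan4d, of a family typical of that stage, was at 0.0125 FPKM there and Zscan4b was listed at 0. The copies are near-identical, and how the counting shared reads among them is not given in the sources used here, so single values are uncertain.

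Mitochondrially encoded transcripts were close to even when abundant. COX1, the catalytic subunit of complex IV, was at 5026, 4633 and 4198 FPKM with a ratio of 0.14. Of 13 genes, 5 were at least 2-fold higher and 0 lower. COX3 had 10.2, 59.6 and 12.7 FPKM with a ratio of 2.15, and ATP6 6.71, 40.8 and 9.08 FPKM with 2.05. Several of the 5 overlap or have near-identical nuclear copies, so that their counting is uncertain, and all 5 were below 60 FPKM.

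Cho-Orgs offered a readout from other libraries with replicates, namely the change from P0 to passage 10 (P10) with 3 libraries a passage. The study describes each replicate as its own culture and its numbered libraries as coming from 3 mice, so same-numbered libraries of different passages may share a mouse. Among the 11593 genes tested with limma on log2(FPKM + 1), 31.3% fell and 41.0% rose at an adjusted p of 0.05 (Benjamini-Hochberg). After median-ratio scaling this balance turned, with 4334 genes that fell and 3939 that rose in place of 3634 and 4750. Of the 485 genes that were higher in the intermediate form, 361 were tested, of which 267 (74.0%) fell, 45 (12.5%) rose and 49 did neither, with a median change of -1.65. Of the 320 genes that were lower, 257 were tested, of which 116 (45.1%) fell, 90 rose and 51 did neither, with a median change of -0.09. Genes pass the level filter through the passage in which they are high, and 155 of the 361 reached 1 FPKM in all P0 but not in all P10 libraries. Among the 183 that reached it in all libraries of both passages, 58.5% fell and 19.7% rose, beside 28.1% and 42.5% of the 9974 such genes overall. For the lower genes the shares were 38.6% and 42.7% of 171.

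All 29 tested plasma protein genes fell in Cho-Orgs, with a median change of -5.25. Other hepatocyte lists took both directions. Of 16 tested hepatocyte transcription factor genes 10 fell and 4 rose, and of 13 cytochrome P450 genes 7 fell and 5 rose. Of 7 bile acid and organic anion transporters 2 fell and 4 rose. Over all genes tested, 31.3% fell and 41.0% rose. Alb was at 5202, 4526 and 5254 FPKM in the P0 libraries and at 0.534, 0.569 and 0.647 FPKM at P10, a log2 change of -11.62 ± 0.10 (SE, adjusted p = 3.86e-12 in limma). The groups lay far apart. The Cho-Org and Hep-Org tables were normalized separately, so their levels are not set against each other. Fgb fell from 1240 ± 168 to 2.93 ± 0.169 FPKM (mean ± SD, n = 3 a passage). Hnf4a was at 60.7, 56.0 and 76.3 FPKM at P0 and at 58.1, 56.9 and 54.0 FPKM at P10, a change of -0.18 ± 0.10 that did not pass the test (adjusted p = 0.128 in limma).

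The intestinal genes behaved less uniformly in Cho-Orgs. Of 28 tested, 17 fell and 4 rose, beside 31.3% and 41.0% of all genes tested. Tff3 was at 1132, 262 and 680 FPKM at P0 and at 20.6, 24.6 and 22.1 FPKM at P10, a change of -4.65 ± 0.43 (adjusted p = 6.08e-06 in limma). Agr2 fell from 319.7 ± 206 to 70.6 ± 1.53 FPKM, and Lypd8 from 125 ± 77.9 to 2.61 ± 0.0806 FPKM. Reg3g rose from 21.4 ± 5.86 to 47.2 ± 0.629 FPKM (adjusted p = 0.000119 in limma). Lgals4 was at 485, 421 and 896 FPKM at P0 and at 671, 675 and 682 FPKM at P10, which did not pass the test (adjusted p = 0.324 in limma). The P0 libraries overlapped with or spread around the P10 level for this gene. Cdx2 and Muc13 did not pass the test either. Dmbt1 was at 1177 ± 351 FPKM at P0 and 597 ± 11.8 FPKM at P10.

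Genes that were lower in the intermediate form took both directions. Krt7 rose from 248 ± 19.6 to 919.7 ± 5.40 FPKM (adjusted p = 5.57e-09 in limma). Prxl2a was at 61.4, 59.7 and 61.4 FPKM at P0 and at 614, 609 and 631 FPKM at P10, a change of 3.32 ± 0.06. Aspa rose by 1.58 and St3gal6, a sialyltransferase, by 2.94 on the log2 scale. Myl9, in contrast, fell from 335, 224 and 205 FPKM to 0.768, 0.876 and 0.805 FPKM, a change of -7.11 ± 0.17. Olfm4 fell by 6.31 and Clic6, a chloride channel protein, by 3.06. Adgrg7 fell from 63.5 ± 8.87 to 40.5 ± 0.195 FPKM.

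Of the 28 cell cycle genes, 27 fell and 1, Ccnd1, rose, from 216 ± 32.9 to 471 ± 4.78 FPKM. Of 13 tested YAP and TEAD targets, 11 rose and 0 fell. Over all genes tested, 31.3% fell and 41.0% rose. The early embryo families were near 0 in Cho-Orgs at P0 and P10, with a highest mean of 0.0271 FPKM at P0 and 0.522 FPKM at P10, but not at P5. Eif4a3l1 was at 9.81, 8.57 and 15.2 FPKM in the P5 libraries, Tcstv1 at 2.66, 4.28 and 4.41 FPKM and Usp17lc at 1.67, 1.34 and 2.14 FPKM. Each of the 3 genes was thus higher in every P5 library than in any P0 or P10 library. Leaving out 1 replicate number at a time lowered the number of higher genes that fell to between 157 and 169, since a gene then needs a level in more libraries than the 2 left at P0. With the filter set to 2 libraries it was 260 to 279.

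**Figure D5:**
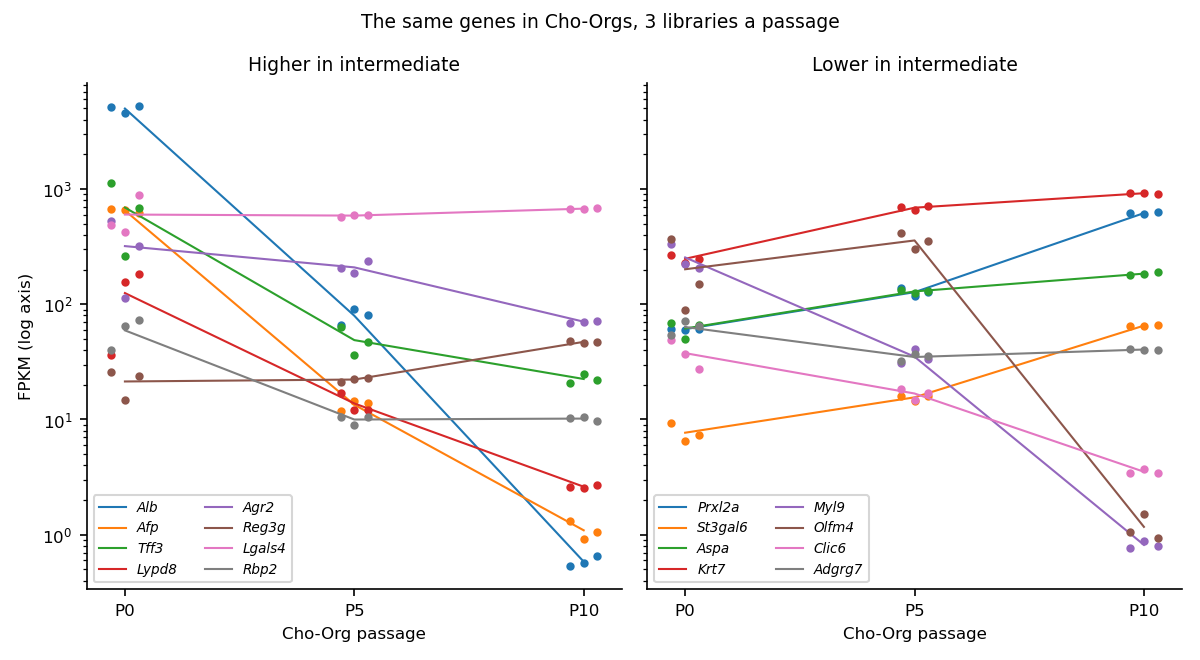
FPKM (log axis) of 16 genes by Cho-Org passage (P0, P5, P10), with 1 point a library (3 a passage) and lines through the means. Among genes higher in the intermediate Hep-Orgs (left) Alb drops from 4526 FPKM or more to under 1, while Lgals4 did not pass the test; among lower genes (right) Krt7 and Prxl2a rise while Myl9 and Olfm4 drop.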

How the data were processed

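Picked grape-like, intermediate and round-like P0 Hep-Orgs were amplified as full-length cDNA by Smart-Seq, per the paper's methods, while the labels describe a bulk poly(A) protocol. The authors deposited FPKM, separately for the Smart-Seq and the Cho-Org table. Their processing notes name mm10, featureCounts 2.0.3 and edgeR 3.40.2, and the aligner and annotation are not given in the sources used here. The members, gene lists and tests were chosen with earlier results of these data known. Ratios used a pseudocount of 1. Fragments were estimated from FPKM and the longest GENCODE transcript, for 11913 of the 12033 genes. Fits used limma 3.58.1 (trend, two-sided, genes at 1 FPKM or more in 3 libraries, tested on simulated data) in R 4.3.3. Python used numpy 2.4.6, pandas 2.3.3 and matplotlib 3.10.9. Cho-Org replicates differed by more than counting error, with a mean chi-square per gene of 44.6 to 97.6 at P0 and 4.36 to 8.45 at P10, while the fit shares 1 spread. Same-numbered libraries of different passages, which may share a mouse, did not deviate together (median correlation -0.00626 over 9 pairs, against -0.00301 over 18 others). Named genes were 6 markers, the 15 largest ratios each way at 20 FPKM or more, up to 4 of largest ratio and 2 of highest level in each list, the 10 most abundant genes of each library and up to 10 near an even ratio. Other genes were named after their values were seen. A few genes that the rule names are not reported here.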

Additional observations from a re-analysis of the deposited data

How the results depend on the processing

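The count of 485 genes higher in the intermediate library stayed between 341 and 717 under 6 alternatives, and was 165 at a 4-fold threshold. The count of 320 lower genes depended more on the settings. It was 578 at a pseudocount of 0.1, 541 as TPM, 210 after median-ratio scaling, 196 at 5 FPKM or more and 48 at 4-fold. The summed FPKM was 426723 in the intermediate and 408822 in the round-like library, so levels rose on conversion to TPM. The pseudocount of 1 then weighed less, and the TPM counts mix this with the change of scale. The median shift of the ratios as TPM was -0.064. In Cho-Orgs a mean of 5 FPKM or more left 135 of the 267 higher genes that fell and 69 of the 116 lower genes that fell. A 4-fold ratio left 116 that fell and 8 that rose among higher genes, and 11 and 14 among lower genes. Without 1 replicate of each passage, the counts were 157 to 169 and 39 to 42 among higher genes, and 104 to 111 and 81 to 89 among lower genes. With a filter of 2 libraries, added after seeing the data, they were 260 to 279, 40 to 43, 111 to 116 and 87 to 94. At 4-fold the lower genes that rose thus outnumbered those that fell, the opposite of the order at 2-fold. Over all 11593 genes, median-ratio scaling gave 4334 that fell and 3939 that rose, in place of 3634 and 4750. The sign of the median of some gene lists turned as well, as given beside them.

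A replicate block by library number, for which the check of the pairing is given with the processing, gave 268 that fell and 45 that rose among higher genes, and 116 and 87 among lower genes.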

Other observations

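Coagulation and fibrinolysis genes, listed after values were seen, were at least 2-fold higher in the intermediate library in 17 of 18 cases. Over all genes that share was 4.03%. Of the 18 genes, 0 were lower and the median ratio was 2.73. The list shares genes with the plasma proteins, Fgg, Fga and Plg included, so its counts partly repeat those given above. Proc, which encodes the anticoagulant protein C, was at 12.01, 31.6 and 2.65 FPKM (grape-like, then intermediate, then round-like), with a ratio of 3.16. F9, the gene of clotting factor IX, was at 1.26, 2.71 and 0.1205 FPKM with a ratio of 1.73. In Cho-Orgs all 17 tested genes fell from P0 to P10, beside 31.3% of all genes tested. Apolipoproteins, chosen in the same way, were higher in 9 of 10 cases, with a median of 2.37. Apoe, which clears lipoproteins, was at 2201, 1205 and 396 FPKM with a ratio of 1.60. Among 9 carboxylesterases, also listed after values were seen, 7 were higher and 0 lower, with a median of 2.36. They include Ces2a, whose ratio of 7.20 was already known.

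Genes of collagens, laminins and integrins, also listed after values were seen, held 3 lower and 0 higher of 17 members. Their median of -0.17 moved to 0.00 after median-ratio scaling. Col4a1 and Col4a2, the chains of type IV collagen, had ratios of -1.64 each. Col4a1 was at 61.0, 17.1 and 55.4 FPKM, so that the intermediate library was the lowest.

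Some genes of stomach, foregut and endoderm were among those higher in the round-like library, and were picked for their values. Gata5, an endodermal transcription factor, was at 1.07, 0.668 and 17.5 FPKM with a ratio of -3.47. Sox17, a factor of endoderm and bile duct precursors, was at 0.145, 0.0261 and 5.95 FPKM. Aldh1a2, which makes retinoic acid, was at 6.28, 0.142 and 8.37 FPKM, and Ctse, an aspartic protease of stomach, at 0.907, 0.806 and 10.7 FPKM.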
